A study of Bos taurus with 54 samples.

Results

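The genes described here encode 9 enzymes and cofactors that make eicosanoids from arachidonic acid: PLA2G4A, PTGS1, PTGS2, PTGES, TBXAS1, ALOX5, ALOX5AP, LTA4H and LTC4S. They were chosen by gene symbol, and all 9 were among the 32637 genes counted in every library. Cytosolic phospholipase A2 releases arachidonic acid from membranes. Cyclooxygenases then turn it into prostaglandin H2, the precursor of prostaglandins and thromboxane, whereas 5-lipoxygenase and its activating protein turn it into leukotriene A4, the precursor of leukotriene B4 and the cysteinyl leukotrienes. In blood, prostaglandins and leukotrienes are known mainly as products of neutrophils, monocytes, eosinophils and basophils, and thromboxane as a product of platelets.

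RNA came from blood of 15 Holstein calves, from the cells left after red cells had been lysed. Control samples (26 libraries) were taken under thermoneutral conditions in the morning and heat stress samples (26 libraries) from these calves in the evening after 12 h of heat stress, so heat and time of day cannot be told apart. The labels name no other treatment or genotype for either group. Libraries of mRNA 3′ ends were made from the same RNA with SMART-Seq v4 3′ DE (Takara) and with QuantSeq 3′ (Lexogen), giving 13 control and 13 heat stress libraries per kit and 12 calves with both conditions in each kit. The kits are therefore not independent repeats of the heat stress. Animal 20, with 1 library per kit, was left out because its label and the study's own account disagreed on its condition. The sample numbers fall into 2 runs with a wide gap, of 8 and 7 calves, and each comparison was repeated within each run.

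Reads on genes ranged from 5140595 to 20699030 in the Takara libraries and from 4516761 to 58521751 in the Lexogen libraries. Levels are given as reads of the gene per 1000000 reads on genes after TMM scaling (CPM), and changes within a calf as log2((CPM + 1 after heat stress)/(CPM + 1 in the control)). Group comparisons used edgeR's quasi-likelihood test over all genes kept by its filter on low counts, and a gene was called at a Benjamini-Hochberg adjusted p under 0.05. Neutrophil, monocyte, platelet, T cell, B cell and eosinophil or basophil markers were present in both kits. Of 8 erythroid markers, the alpha-globin gene HBA1 was at 0 in all libraries of both kits, and HBA in all of Lexogen. Erythroid RNA was still present, as the summed markers had a control median of 1702 CPM in Takara and 336 CPM in Lexogen. In whole blood, a change in the number of cells of a type and a change in RNA per cell cannot be told apart.

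In the Takara libraries, 4 enzyme genes rose with heat stress: PLA2G4A, TBXAS1, ALOX5 and ALOX5AP. Of the 8 that could be tested, the other 4 were not called and none was called lower, while 18.4% of all 12620 genes tested were called higher and 10.5% lower. The median log2 fold change of the 8 genes was 0.75, against -0.05 over all genes tested. The 4 called genes were also those with an unadjusted p under 0.05, which 5166 of all 12620 genes had. DESeq2 called the same number of enzyme genes in each direction. No enzyme gene had groups free of overlap in either kit, which 0.0317% of all genes in Takara and 0.009% in Lexogen did. All calls of enzyme genes in both kits rest on leaving out animal 20 or counting it as heat stress: counted as control, its library took the calls to 0 in each kit. In the Lexogen libraries, 1 of 7 enzyme genes tested, ALOX5AP, was called higher and none lower. An unadjusted p under 0.05 was found for 3 of the 7, all of them higher, and for 1877 of all 11108 genes in either direction. Of all 11108 genes tested, 5.09% were called higher and 0.459% lower. As a background for counts of calves, 2856 of 12620 genes in Takara were higher in 9 or more of 12 calves and 1605 in 10 or more. In Lexogen 1272 of 11108 genes were higher in 9 or more, 592 in 10 or more and 160 in 11 or more.

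**Figure D1:**
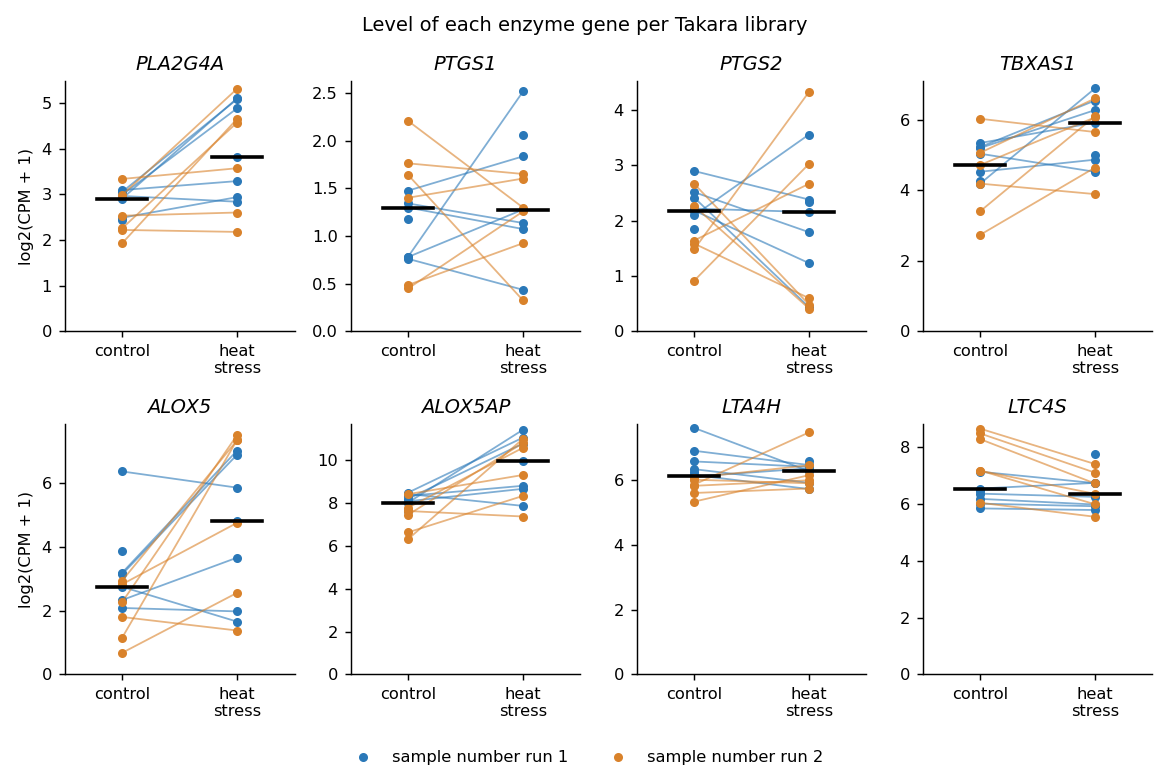
Level of 8 enzyme genes in each Takara library, as log2(CPM + 1), in 13 control and 13 heat stress libraries. Points are libraries, thin lines join the libraries of 1 calf, colours mark the 2 runs of sample numbers, and black bars are group medians. ALOX5AP shows 10 heat stress libraries above every control library, whereas PTGS2 spreads widely after heat stress with nearly the same median.

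PLA2G4A encodes cytosolic phospholipase A2, which frees arachidonic acid and so supplies both branches of the pathway. It lies on chromosome 16 (ARS-UCD2.0, 67907024 to 68081280), on the same chromosome as PTGS2 (67728006 to 67735629). Takara levels of PLA2G4A ran from 2.80 CPM through a median of 6.49 to 9.10 CPM in the control libraries, and from 3.52 through 12.99 to 38.7 CPM after heat stress. Of the heat stress libraries, 8 lay above every control library, and the rest overlapped the controls. The fitted log2 fold change was 1.63 ± 0.32 (SE), a 3.09-fold rise with an edgeR adjusted p of 0.000827, and the level was higher in 10 of 12 calves. Lexogen medians of PLA2G4A were 7.74 CPM in the control and 13.8 CPM after heat stress, it was higher in 8 of 12 calves, and the log2 fold change of 0.83 ± 0.38 was not called (adjusted p = 0.255). Within the runs of sample numbers the Takara log2 fold change of PLA2G4A was 1.51 in the first (adjusted p = 0.0131) and 1.78 in the second (adjusted p = 0.0527).

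Leukotriene synthesis starts with ALOX5, 5-lipoxygenase, and ALOX5AP, also called FLAP, the membrane protein that presents arachidonic acid to it. ALOX5AP (chromosome 12, 30111715 to 30134530) was measured at 78.5 to 357 CPM in the Takara control libraries, with a median of 258 CPM, and at 164 to 2732 CPM after heat stress, with a median of 1002 CPM. All but 3 of the 13 heat stress libraries lay above every control library. Its log2 fold change was 2.27 ± 0.38, a 4.82-fold rise (edgeR adjusted p = 0.000354), and it was higher in 10 of 12 calves, with small decreases of 0.26 and 0.56 on the log2 scale in animals 3 and 41. In the Lexogen libraries ALOX5AP had a control median of 30.5 CPM and a range of 11.7 to 67.8 CPM, against a median of 85.7 CPM and a range of 2.20 to 293 CPM after heat stress. The rise there was 3.89-fold (log2 fold change 1.96 ± 0.48, adjusted p = 0.0102) and was seen in 9 of 12 calves. Animal 23 stood out in the Lexogen libraries, where ALOX5AP fell by 3.52 on the log2 scale to the lowest level of all. With the animal as a block, the Takara call held (1.85, adjusted p = 0.0136) and the Lexogen call did not (1.18, adjusted p = 0.363). Within the first and second run, the Takara log2 fold change of ALOX5AP was 2.05 and 2.60, and both were called (adjusted p = 0.00802 and 0.0365), whereas the Lexogen values of 1.75 and 2.32 were not (adjusted p = 0.0890 and 0.234).

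ALOX5 itself (chromosome 28, 44346284 to 44392527) varied more between calves than ALOX5AP. Its Takara level was 0.597 to 80.7 CPM in the control libraries, with a median of 5.68 CPM, and 1.59 to 179 CPM after heat stress, with a median of 26.8 CPM. The highest control value belonged to animal 18, and the next highest control libraries overlapped the lower part of the heat stress group. ALOX5 rose 6.01-fold (log2 fold change 2.59 ± 0.75, edgeR adjusted p = 0.0108), with a higher level in 8 of 12 calves and within-calf changes from -1.09 in animal 12 to 6.19 in animal 16. Without the control library of animal 18 the log2 fold change of ALOX5 was 3.65. In the first run it was 1.43 (adjusted p = 0.255) and in the second 4.69 (adjusted p = 0.0365). In the Lexogen libraries ALOX5 had a median of 0.297 CPM in the control, with 5 libraries at 0, and 9.32 CPM after heat stress, with none at 0. It was higher in 11 of 12 calves there, yet the log2 fold change of 2.695 ± 0.96 was not called (adjusted p = 0.103), nor was the 3.52 found with the animal as a block (adjusted p = 0.134). Leaving out the Lexogen control library of animal 18 gave 3.81 for ALOX5 (adjusted p = 0.0182), and keeping all genes in the test gave 2.69 (adjusted p = 0.0363).

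**Figure D2:**
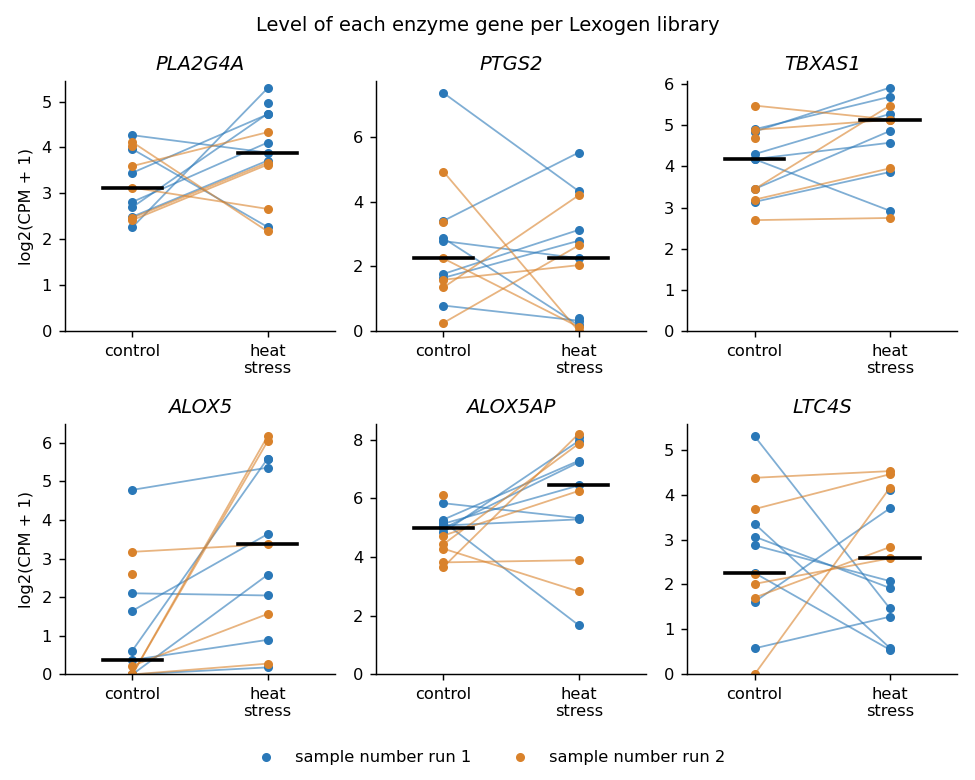
Level of 6 enzyme genes in each Lexogen library, as log2(CPM + 1), in 13 control and 13 heat stress libraries. Points are libraries, thin lines join the libraries of 1 calf, colours mark the 2 runs of sample numbers, and black bars are group medians. ALOX5 was higher after heat stress in 11 of 12 calves and ALOX5AP in 9 of 12.

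The enzymes that follow leukotriene A4 did not move with ALOX5 and ALOX5AP. LTA4H (chromosome 5, 60305579 to 60336134), the hydrolase that makes leukotriene B4, had a Takara median of 68.0 CPM in the control (39.3 to 194 CPM) and 76.4 CPM after heat stress (51.8 to 176 CPM). The groups overlapped almost completely, with 6 of 12 calves higher. Its log2 fold change was 0.02 ± 0.21 (adjusted p = 0.961), with an interval of 1.96 standard errors from -0.40 to 0.43, and its sign changed when the total count served as library size (-0.24). LTA4H in the Lexogen libraries gave -0.09 ± 0.43 (adjusted p = 0.950), again with 6 of 12 calves higher.

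LTC4S (chromosome 7, 1519314 to 1522584), the synthase of leukotriene C4, was lower after heat stress in 11 of 12 calves in the Takara libraries, by a median of -0.45 on the log2 scale. Control levels ran from 56.4 to 401 CPM with a median of 92.2 CPM, and heat stress levels from 45.8 to 217 CPM with a median of 80.9 CPM. All the same, the ranges overlapped, and without regard to the calf the log2 fold change of -0.65 ± 0.32 was not called (edgeR adjusted p = 0.126). With the animal as a block LTC4S was called lower (-0.62, adjusted p = 0.0183), and so it was with the total count as library size (-0.85, adjusted p = 0.0464). It was 0.19 in the first run (adjusted p = 0.668) and -1.21 in the second (adjusted p = 0.0876). Within calves of the first run only animal 41 was higher. The fit of that run also held the heat stress library of animal 29, the highest of its group at 217 CPM and without a Takara control. Leaving out this library gave -0.80 over both runs. LTC4S in the Lexogen libraries ranged from 0 to 38.4 CPM in the control and from 0.463 to 21.96 CPM after heat stress, was higher in 7 of 12 calves, and had a log2 fold change of 0.01 ± 0.65 (adjusted p = 0.997). The summed level of 7 eosinophil, basophil and mast cell markers, cells known to carry LTC4S, was also lower after heat stress in 8 of 12 calves in Takara, with medians of 101 and 88.2 CPM. None of the 5 markers tested was called, and their part in the values of LTC4S was not tested.

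On the cyclooxygenase branch only TBXAS1, the thromboxane synthase, was called. TBXAS1 (chromosome 4, 103295538 to 103468927, where the annotation also places LOC112446511) had a Takara median of 25.4 CPM in the control (5.67 to 64.7 CPM) and 59.9 CPM after heat stress (13.9 to 118.7 CPM). It was 2.09-fold higher after heat stress (log2 fold change 1.07 ± 0.32, edgeR adjusted p = 0.0154) and rose within 9 of 12 calves, with 6 heat stress libraries above every control library. The log2 fold change of TBXAS1 was 1.06 in the first run (adjusted p = 0.0414) and 1.07 in the second (adjusted p = 0.220), and the call was lost with the total count as library size (0.71, adjusted p = 0.0569). Lexogen medians of TBXAS1 were 17.1 and 34.1 CPM and 10 of 12 calves were higher, but the log2 fold change of 0.64 ± 0.35 was not called (adjusted p = 0.368). Platelets are known for thromboxane synthesis, and the summed level of 8 platelet markers was higher in 4 of 12 calves in Takara (medians 2657 and 2379 CPM, 0 of 7 tested markers called). The part of platelets or other cells in the values of TBXAS1 was not tested.

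The cyclooxygenases themselves showed no called change. PTGS1 (chromosome 11, 93236344 to 93262105, overlapping MIR10175), the constitutive cyclooxygenase, was low throughout, at 0.365 to 3.62 CPM in the Takara control libraries and 0.251 to 4.73 CPM after heat stress. It was higher in 6 calves and lower in 6, with a log2 fold change of 0.29 ± 0.37 (adjusted p = 0.567), which was 0.06 without the heat stress library of animal 18. In the Lexogen libraries PTGS1 was at 0 in 8 control and 11 heat stress libraries and was removed by the filter on low counts. PTGES (chromosome 11, 100121988 to 100133425), the inducible prostaglandin E synthase, was at 0 in 10 of 13 control and 11 of 13 heat stress Takara libraries, with 10 counts in all, and was removed by the filter in both kits. At this depth a change of PTGES was not detectable.

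In Takara, PTGS2, the inducible cyclooxygenase, spread after heat stress rather than shifting. The Takara control libraries held 0.883 to 6.46 CPM with a median of 3.55 CPM, and the heat stress libraries 0.330 to 19.1 CPM with a median of 3.46 CPM. After heat stress 3 libraries lay above every control library and 4 below every one, the latter with only 2 to 4 counts each. PTGS2 was lower in 8 of 12 calves, with a median within-calf change of -0.62, although the fitted log2 fold change was positive at 0.44 ± 0.48 (adjusted p = 0.509). The heat stress library of animal 32, with 19.1 CPM from 291 counts, carried that sign: without it the log2 fold change of PTGS2 was -0.01, and with the animal as a block it was -0.32 (adjusted p = 0.724). In the Lexogen libraries PTGS2 was higher in 6 calves and lower in 6, and the log2 fold change was -1.13 ± 0.87 (adjusted p = 0.568), or -0.29 with the block (adjusted p = 0.928). The wider group there was the control, at 0.196 to 162 CPM against 0 to 44.6 CPM after heat stress. The Lexogen control library of animal 19 reached 162 CPM and held 57.9% of all 4000 counts of PTGS2. Without it the value was 0.44 (adjusted p = 0.864). That library also held 967 of the 1608 antisense counts of PTGS2, and 40.2% of PTGS2 counts in Lexogen lay on the antisense strand against 0.471% in Takara. For the other enzyme genes the antisense share was at most 6.09% in Lexogen.

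**Figure D3:**
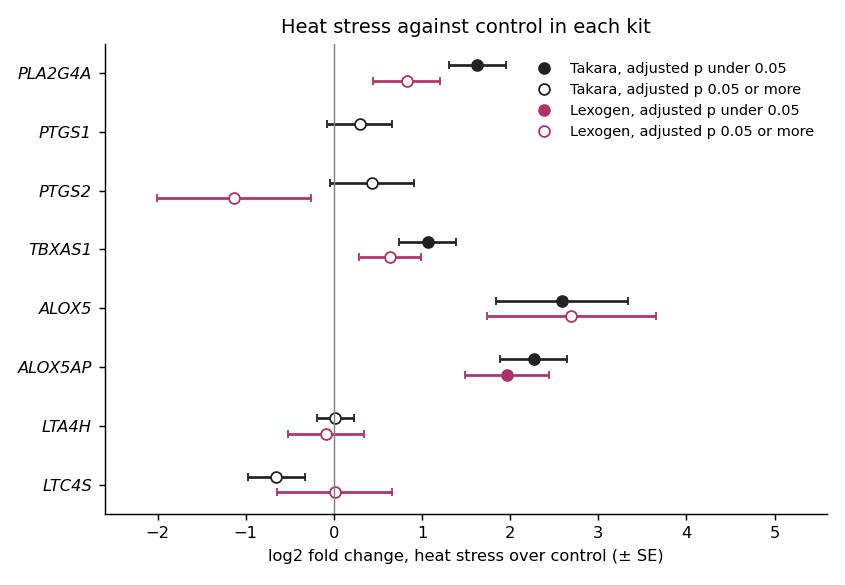
Log2 fold change of heat stress over control with its standard error for 8 enzyme genes in Takara (black) and Lexogen (magenta). Filled points were called at an adjusted p under 0.05 and open points were not. PLA2G4A, TBXAS1, ALOX5 and ALOX5AP are filled in Takara and only ALOX5AP in Lexogen, and PTGS1 was not tested in Lexogen.

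In Takara, the libraries with the highest levels after heat stress were the same ones for several enzymes. In the Takara heat stress group the 6 libraries with the most ALOX5AP came from animals 7, 15, 16, 18, 36 and 40, with 1525 to 2732 CPM against 164 to 1002 CPM in the other 7. The same 6 libraries were also the 6 highest for ALOX5 (56.5 to 179 CPM against 1.59 to 26.8 CPM), PLA2G4A (22.8 to 38.7 CPM against 3.52 to 12.99 CPM) and TBXAS1 (66.7 to 118.7 CPM against 13.9 to 59.9 CPM). They were the 6 lowest for PTGS2, at 0.330 to 2.46 CPM against 3.46 to 19.1 CPM in the other 7. The PTGS2 values of the 6 rest on few reads, with 2 to 37 counts against 26 to 291. A high level was not always a rise: in animal 18, whose control library was also high, ALOX5 changed by -0.51 on the log2 scale within the calf, and TBXAS1 changed by 1.91 in animal 32, which is not among the 6. Both runs of sample numbers contributed 3 of these calves. The match was less complete in Lexogen, where animal 7 has no heat stress library. There the 6 libraries with the most ALOX5AP came from animals 12, 15, 16, 18, 36 and 40. Of these, 5 were among the 6 highest for ALOX5 and for TBXAS1, and 4 for PLA2G4A. For each of these 3 genes, 1 of them was among the 6 lowest. For PTGS2, 5 were among the 6 lowest. The libraries of both kits were singled out after their values were seen, and no test was made between them and the others.

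In Takara, rank correlations over libraries were strongest among PLA2G4A, TBXAS1 and ALOX5AP. Over the 26 Takara libraries the Spearman rho was 0.85 for PLA2G4A with ALOX5AP, 0.85 for PLA2G4A with TBXAS1 and 0.84 for TBXAS1 with ALOX5AP. ALOX5 gave less, with 0.57 with ALOX5AP, 0.50 with PLA2G4A and 0.42 with TBXAS1. Over the 26 Lexogen libraries PLA2G4A had 0.50 with ALOX5AP and 0.41 with TBXAS1, TBXAS1 had 0.64 with ALOX5AP, and ALOX5 had 0.65 with ALOX5AP, 0.32 with PLA2G4A and 0.16 with TBXAS1. In the Lexogen control libraries alone, these pairs gave -0.16, -0.15 and 0.14, and for ALOX5 0.57, -0.17 and -0.25. After heat stress in Lexogen they gave 0.63, 0.47 and 0.76, and for ALOX5 0.74, 0.42 and 0.30. Among the 13 Takara heat stress libraries, where PTGS2 had 2 to 291 counts, its rho was -0.86 with ALOX5, -0.80 with ALOX5AP, -0.79 with PLA2G4A and -0.78 with TBXAS1. Among the 13 Takara control libraries the same pairs gave 0.36, 0.25, 0.03 and 0.29. In Lexogen the rho of PTGS2 with ALOX5, ALOX5AP, PLA2G4A and TBXAS1 was -0.54, -0.80, -0.32 and -0.60 after heat stress and -0.49, 0.23, 0.23 and 0.40 in the control, so that for ALOX5 it was negative in both groups. All of these values share the scaling of each library, and they are given without a test.

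**Figure D4:**
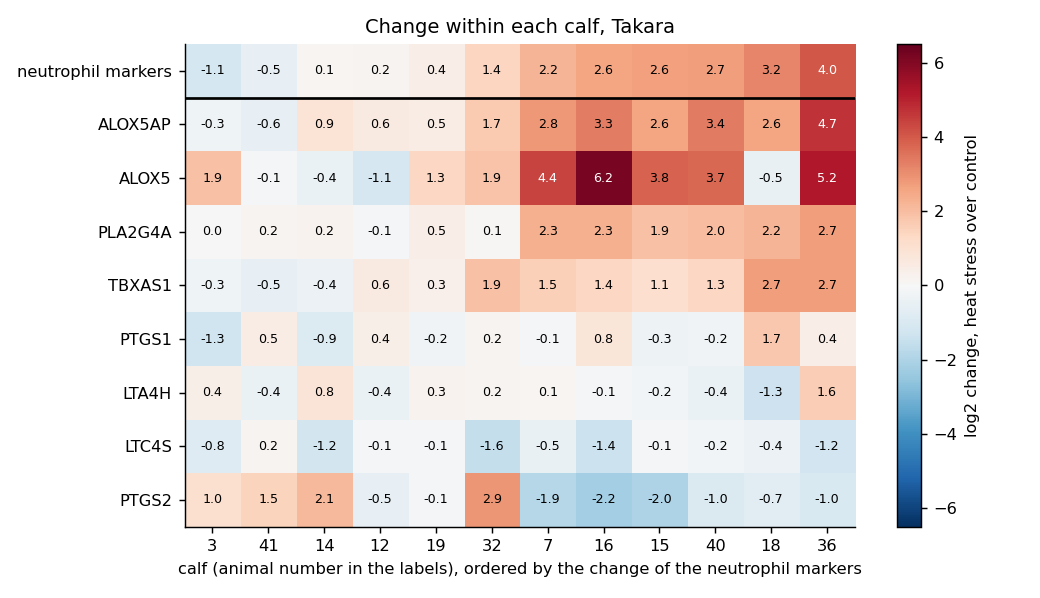
Log2 change of heat stress over control within each of 12 calves in Takara, for the summed neutrophil markers (top row) and 8 enzyme genes, with the calves ordered by the change of the neutrophil markers. Red cells are higher and blue cells lower after heat stress. In animals 7, 15, 16, 18, 36 and 40, on the right, PLA2G4A, TBXAS1 and ALOX5AP are red and PTGS2 is blue.

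Neutrophil markers moved in the same calves. The summed level of 10 neutrophil markers in Takara went from a control median of 5268 CPM (2005 to 9315 CPM) to 16574 CPM after heat stress (2099 to 39326 CPM), was higher in 10 of 12 calves, and 7 of the 10 markers were called higher. In Lexogen the medians were 2380 and 5889 CPM, with 6 of 10 called higher. T cell markers were lower, with medians of 1065 and 790 CPM in Takara, 11 of 12 calves lower and 3 of 8 markers called lower. In Lexogen their medians were 526 and 431 CPM, 4 of 12 calves were higher, and 0 of 8 were called. Monocyte markers had medians of 1073 and 1178 CPM, with 3 of 7 tested called higher, and 669 and 805 CPM in Lexogen, with 0 of 7 called. The summed B cell markers in Takara went from 628 to 471 CPM and the erythroid markers from 1702 to 1135 CPM, with none called. Beside these marker counts, 18.4% of all genes were called higher and 10.5% lower in Takara, and 5.09% and 0.459% in Lexogen. The 6 Takara heat stress libraries with the most ALOX5AP were also the 6 with the highest neutrophil marker sum, at 23950 to 39326 CPM against 2099 to 16574 CPM in the other 7. In Lexogen 5 of the 6 with the most ALOX5AP were, and 1 was among the 6 lowest.

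The within-calf change of each enzyme gene was set against that of the neutrophil markers, giving 15 relations over 12 calves each. This family was chosen after the values were seen, so its p-values describe the relations and are no independent support. Both changes share the scaling of each library, which permuting the calves does not remove. How many of all genes followed the markers as closely was not counted. In Takara the change of ALOX5AP followed that of the neutrophil markers with a Pearson r of 0.962 (permutation p = 2.0e-05, adjusted p = 0.0003) and a Spearman rho of 0.888 (permutation p = 0.00028, adjusted p = 0.0042). Without animals 3 and 41, the calves farthest from the median, the r of ALOX5AP was 0.945, and it was 0.960 and 0.994 within the runs. PLA2G4A had an r of 0.913 (permutation p = 0.00028, adjusted p = 0.0014) and a rho of 0.790 (permutation p = 0.00334, adjusted p = 0.0100), with an r of 0.916 without the same 2 calves and 0.970 and 0.877 within the runs. TBXAS1 had an r of 0.896 (permutation p = 0.00012, adjusted p = 0.0009) and a rho of 0.832 (permutation p = 0.0014, adjusted p = 0.00754), with an r of 0.843 without the 2 calves and 0.889 and 0.905 within the runs.

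ALOX5 and PTGS2 followed the neutrophil markers less closely. For ALOX5 in Takara r was 0.610 (permutation p = 0.0375, adjusted p = 0.0804) and rho 0.441 (permutation p = 0.153, adjusted p = 0.287), with an r of 0.649 without the 2 calves and 0.512 and 0.771 within the runs. PTGS2 went the other way, with r = -0.633 (permutation p = 0.0294, adjusted p = 0.0734) and rho = -0.657 (permutation p = 0.0234, adjusted p = 0.0586), an r of -0.551 without the 2 calves, and -0.780 and -0.616 within the runs, and neither of these passed the adjustment. The r of PTGS1, LTA4H and LTC4S in Takara was 0.530, 0.011 and -0.213, with adjusted permutation p-values of 0.126, 0.973 and 0.537. In Lexogen the relation passed the adjustment for ALOX5AP (r = 0.799, adjusted permutation p = 0.00517; rho = 0.811, adjusted 0.00754) and ALOX5 (r = 0.782, adjusted 0.00804; rho = 0.818, adjusted 0.00754), and without animals 16 and 36 their r was 0.662 and 0.554. The other 5 relations in Lexogen did not pass, with r from -0.532 for PTGS2 to 0.484 for PLA2G4A. The part of neutrophil RNA in the rise of these genes was not tested beyond these relations.

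**Figure D5:**
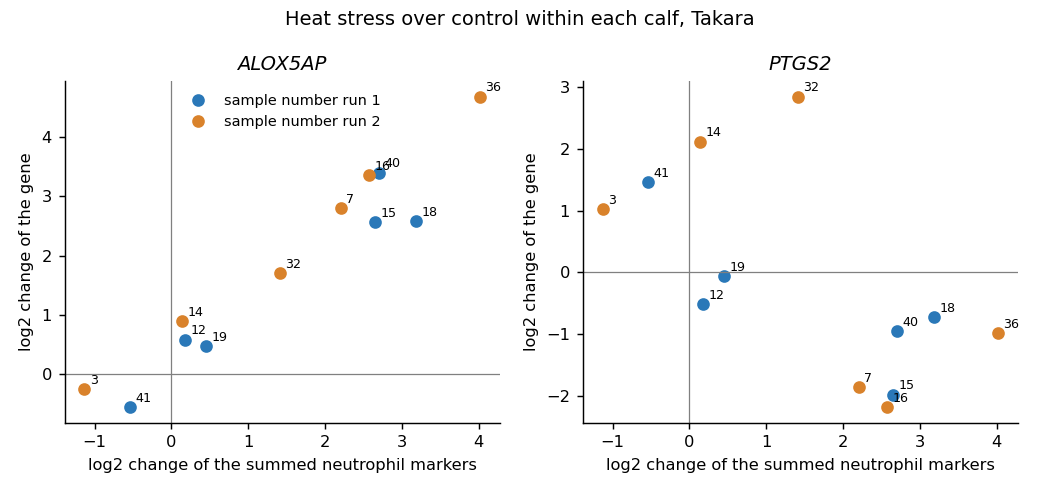
Log2 change of ALOX5AP (left) and PTGS2 (right) within each of 12 calves in Takara against the log2 change of the 10 summed neutrophil markers, with colours for the 2 runs of sample numbers and animal numbers beside the points. ALOX5AP climbs with the neutrophil markers (r = 0.962), and PTGS2 is lower in all 6 calves at the right.

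Genes with the most similar pattern were ranked over the 26 Takara libraries among 10834 genes kept in both kits. For ALOX5AP they were LOC100300478, FHL3, CRISPLD2, JAGN1 and NFAM1, with a Spearman rho of 0.955, 0.954, 0.952, 0.950 and 0.949. Over the Lexogen libraries the same genes gave 0.831, 0.543, 0.925, 0.349 and 0.8003. For PTGS2 the nearest genes were MRPS12, RRP7, EIF1AD, TSN and SMARCAL1, with a rho of 0.834, 0.819, 0.811, 0.781 and 0.776 in Takara, but -0.125, 0.004, -0.289, 0.307 and 0.337 in Lexogen. None of these 5 was called between heat stress and control in Takara.

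Beyond the 9 enzymes, 79 genes of the wider pathway were counted in 7 lists, and 58 were tested in Takara, where 17 were called higher and 4 lower, beside 18.4% and 10.5% of all genes. Their median log2 fold change was 0.12, against -0.05 over all genes. In Lexogen 8 of 43 tested were called higher, beside 5.09% of all genes, and none lower. The list of regulators, which was drawn up with some of its results known, held 9 of the 17, and 8 of the 44 other genes tested in Takara were called higher, a share close to the 18.4% of all genes.

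In arachidonate handling, 2 of 12 tested genes rose in Takara, near the background of 18.4%. MBOAT7, which puts arachidonic acid back into phosphatidylinositol, went from a median of 53.9 to 112 CPM (log2 fold change 1.20 ± 0.23, edgeR adjusted p = 0.000636), and it also rose in Lexogen (1.40 ± 0.40, adjusted p = 0.0332), although not with the animal as a block there (adjusted p = 0.376). MGLL, which releases arachidonic acid from 2-arachidonoylglycerol, rose by a log2 fold change of 1.46 ± 0.47 from a median of 0.798 to 1.84 CPM (adjusted p = 0.0205), a call lost with the animal as a block (adjusted p = 0.131). It was not tested in Lexogen.

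Of 10 tested genes of prostanoid synthesis in Takara, PTGES3 was called higher (0.33 ± 0.11, adjusted p = 0.0266) and PRXL2B, a prostaglandin F synthase, lower (-0.68 ± 0.17, adjusted p = 0.00479). Of all genes, 18.4% were called higher and 10.5% lower. In the lipoxygenase list 3 of 11 rose and 3 fell, beside 18.4% and 10.5% of all genes. MAPKAPK2, a kinase that phosphorylates 5-lipoxygenase, rose in both kits (Takara 1.10 ± 0.40, adjusted p = 0.0402; Lexogen 0.98 ± 0.24, adjusted p = 0.0127), and its Lexogen adjusted p was 0.154 with the animal as a block. MGST1, a microsomal glutathione transferase, rose in Takara (1.62 ± 0.37, adjusted p = 0.00224), as did its relative MGST2 (0.82 ± 0.21, adjusted p = 0.00445), which can also make leukotriene C4. The 3 that fell in Takara were MGST3 (-0.37 ± 0.12, adjusted p = 0.0284, and 0.0549 with the animal as a block), DPEP2 (-0.81 ± 0.20, adjusted p = 0.00384) and ABCC1 (-0.48 ± 0.14, adjusted p = 0.0126). DPEP2 cleaves leukotriene D4 and ABCC1 exports leukotriene C4. PTGES3, PRXL2B, MGST2, MGST3, DPEP2 and ABCC1 were named after their values were seen.

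Among receptors, PTGER4, a prostaglandin E2 receptor, went from a median of 69.9 to 100.03 CPM in Takara and from 69.5 to 149 CPM in Lexogen and was called in both (1.59 ± 0.33, adjusted p = 0.00117, and 0.94 ± 0.26, adjusted p = 0.0257). The Lexogen call of PTGER4 was lost with the animal as a block (adjusted p = 0.126). OXER1, the receptor of the 5-lipoxygenase product 5-oxo-ETE, rose in Takara from a median of 1.68 to 4.52 CPM (1.53 ± 0.44, adjusted p = 0.0102). These were the only called genes of 5 tested prostanoid receptors and 5 tested leukotriene and other receptors in Takara. That share is close to the 18.4% of all genes called higher. The single breakdown or transport gene tested was not called in either kit.

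The list of regulators was drawn up with some of its results known. It held the largest changes among the named pathway genes, and 9 of 14 tested were called higher in Takara, beside 18.4% of all genes. The 5 not called there were IL1B (log2 fold change 0.13), TNF (-0.17), NFKB1 (0.27), CEBPB (0.53) and ELAVL1 (-0.18). In Lexogen 5 of 12 tested were called higher, beside 5.09% of all genes. ANXA1, an inhibitor of phospholipase A2 that glucocorticoids induce, rose in Takara from a median of 1609 to 2920 CPM (2.13 ± 0.42, adjusted p = 0.000762) and in Lexogen from 277 to 723 CPM (1.65 ± 0.38, adjusted p = 0.00616), where the call held with the animal as a block (1.64, adjusted p = 0.0278). DUSP1, a phosphatase of MAP kinases, had log2 fold changes of 3.09 ± 0.55 in Takara (adjusted p = 0.000457) and 2.21 ± 0.39 in Lexogen (adjusted p = 0.00104). With the block they were smaller, at 2.09 (adjusted p = 0.0252) and 1.58 (adjusted p = 0.0505). TSC22D3, the glucocorticoid-induced leucine zipper, gave 1.08 ± 0.24 and 0.84 ± 0.23 (adjusted p = 0.00195 and 0.0257).

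IL1R2, the decoy receptor of interleukin 1, gave 6.29 ± 0.95 in Takara and 5.72 ± 0.90 in Lexogen (edgeR adjusted p = 0.000286 and 0.000455), with Takara medians of 28.1 and 1188 CPM. The animal as a block lowered them to 4.27 (adjusted p = 0.0160) and 3.29 (adjusted p = 0.167). IL1RN, the interleukin 1 receptor antagonist, gave 1.16 ± 0.27 and 0.94 ± 0.29 (adjusted p = 0.00259 and 0.0476). With the animal as a block the Lexogen calls of TSC22D3 and IL1RN were lost as well (adjusted p = 0.185 and 0.159). ZFP36, which promotes decay of mRNAs such as that of PTGS2, rose in Takara by 1.64 ± 0.38 (adjusted p = 0.00226) and was not tested in Lexogen.

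Whether the response differed between the runs of sample numbers was tested as an interaction. No enzyme gene was called by edgeR in either kit, where 2.58% of all genes in Takara and 0.018% in Lexogen were. An unadjusted p under 0.05 was found for 3 of 8 in Takara, beside 2091 of all 12620 genes. In Lexogen it was found for 0 of 7, beside 883 of all 11108 genes. The 3 in Takara were LTA4H, with a difference between runs in log2 fold change of 1.01 ± 0.37 (adjusted p = 0.153), LTC4S with -1.45 ± 0.53 (adjusted p = 0.153) and ALOX5 with 3.15 ± 1.39 (adjusted p = 0.247). Calves with 1 condition entered this fit too, among them animal 29 of the first run, with the highest LTC4S after heat stress.

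The kits captured these genes to very different degrees from the same RNA. Across the 24 RNA samples sequenced with both kits, 5 of the 7 enzyme genes tested were higher in Takara and 1 was lower, where 44.5% of 12447 genes tested were higher and 27.8% lower and the median log2 ratio of all genes was 0.41. The largest difference was that of LTC4S, 18.3-fold higher in Takara (log2 ratio 4.20 ± 0.38, edgeR adjusted p = 2.74e-11), with a median of 87.6 CPM in Takara and 4.86 CPM in Lexogen. ALOX5AP was 6.86-fold higher (2.78 ± 0.14, adjusted p = 4.64e-17) and LTA4H 4.63-fold (2.21 ± 0.22, adjusted p = 1.88e-10), and these 3 genes were higher in Takara in 24 of 24 RNA samples. ALOX5 was 2.87-fold higher (1.52 ± 0.40, adjusted p = 0.00109). The log2 ratio of TBXAS1, 0.36 ± 0.16 (adjusted p = 0.0415), lay below that of the median gene. PLA2G4A was lower in Takara (-0.65 ± 0.21, adjusted p = 0.00600), and PTGS2 was not called (-0.34 ± 0.45, adjusted p = 0.508). PTGS1, which was not tested between kits, had counts in all 24 Takara libraries and was at 0 in 18 of the 24 Lexogen libraries.

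Between the kits, the order of the 24 RNA samples was alike for ALOX5AP (Spearman rho 0.85), ALOX5 (0.84) and TBXAS1 (0.76), intermediate for PTGS2 (0.55), PLA2G4A (0.54) and LTA4H (0.48), and close to 0 for LTC4S (0.03). The difference between kits in the response to heat stress was called for 0 of the 7 genes by edgeR, and for 0.0% of all genes. ALOX5 alone had an unadjusted p under 0.05, with a Takara minus Lexogen difference in log2 fold change of -1.75 ± 0.78 (adjusted p = 1.000), and 479 of all genes did. PLA2G4A and TBXAS1, called in Takara and not in Lexogen, had differences of 0.48 ± 0.41 and 0.21 ± 0.32.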

How the data were processed

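The authors trimmed reads with Trimmomatic 0.39, aligned them to ARS-UCD2.0 with STAR 2.7.10b and deposited raw counts of uniquely mapped reads per gene, in unstranded, sense and antisense columns. The unstranded counts were used. The 4 rows of totals stayed out of library sizes. Per-gene positions came from the ARS-UCD2.0 annotation, and no sequences were used.

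Counts were filtered with filterByExpr (minimum count 10), scaled by TMM and tested in edgeR 4.0.16 (R 4.3.3) within each kit, without covariates, as in the study. The kits were compared with the RNA sample as a block. Alternatives were the animal as a block, DESeq2 1.42.0, other scalings, no filter, sense counts, both conditions for animal 20, each run of sample numbers, and each library left out. Animal numbers mark the same calf. The deviations of a calf's libraries from their group means correlated above 0.1 in 10 of 12 calves in Takara (median 0.236) and 3 of 12 in Lexogen (median 0.00541).

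Correlations used 100000 permutations, two-sided. The steps were tested on simulated data. Reads carry no molecular identifiers. The median standard error over all genes was 0.18 in Takara and 0.42 in Lexogen. The genes, the lists and the rule for named genes were chosen with earlier results of these data known. Pathway genes were named where called in Takara with a log2 fold change of at least 1 in size, or called in both kits. For ALOX5AP and PTGS2 the 5 most similar genes were named.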

Additional observations from a re-analysis of the deposited data

Results flagged for a closer look

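Animal 20 had 1 library per kit that entered no comparison, and 4 enzyme genes lay there above every control library of the kit. In its Takara library PLA2G4A was at 28.1 CPM, TBXAS1 at 95.5 CPM, ALOX5 at 86.3 CPM and ALOX5AP at 2851 CPM, where the highest control values on the same scale were 9.07, 64.6, 79.4 and 358 CPM. In its Lexogen library PLA2G4A was at 23.2 CPM, TBXAS1 at 55.2 CPM, ALOX5 at 32.6 CPM and ALOX5AP at 357 CPM, against highest control values of 18.2, 43.6, 26.5 and 67.9 CPM. The label gives this calf as heat stress, and its ALOX5AP was above all 13 heat stress libraries in both kits. PTGS2 in the Takara library of animal 20 was 0.324 CPM, from 2 counts. The condition of this calf was not inferred from these values.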

How the results depend on the processing

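The assignment of animal 20 mattered most. Counted as control, the enzyme genes called higher went from 4 to 0 in Takara and from 1 to 0 in Lexogen, and the pathway genes from 17 higher and 4 lower to 0 and 0 in Takara and from 8 to 0 in Lexogen. The Takara log2 fold changes were then 1.27 for PLA2G4A, 0.81 for TBXAS1, 2.003 for ALOX5 and 1.41 for ALOX5AP, with adjusted p from 0.0554 to 0.120, and LTA4H was -0.0045. Counted as heat stress, as its label says, the pathway genes called lower in Takara were 8 and LTC4S in Lexogen was -0.030. The shares of all genes called with animal 20 as control, with the block, within a run or without the filter are not given here. A loss or gain of calls under those settings therefore cannot be read as particular to the enzymes.

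With the animal as a block, 1 enzyme gene (LTC4S) was called lower in Takara in place of 0 and the other 4 calls held, while the Lexogen calls went from 1 to 0 for the enzymes and from 8 to 1 for the pathway. PTGS2 in Takara became -0.32 and LTC4S in Lexogen -0.062 under the block. With the total count as library size 1 enzyme gene (LTC4S) and 8 pathway genes were lower in Takara, LTA4H was -0.24, and LTC4S in Lexogen was -0.026. Over all genes that scaling moved the Takara median log2 fold change from -0.05 to -0.27 and the share of calls that were higher from 63.8% to 37.4%. Without the filter on low counts 2 enzyme genes were higher in Lexogen, LTA4H in Takara was -0.0053 and LTC4S in Lexogen -0.0072. DESeq2 called 1 pathway gene lower in Lexogen. LTC4S in Lexogen was -0.12 once its most deeply sequenced library was left out.

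Within the second run of sample numbers 2 enzyme genes were higher in Takara, PTGS1 was -0.37 there and LTA4H in Lexogen 0.11. Within the first run PTGS2 was -0.072, LTA4H -0.40 and LTC4S 0.19 in Takara, and LTC4S in Lexogen was -1.01. Lexogen called 0 enzyme genes within either run. Without the RNA sample as a block the enzyme genes higher in Takara than in Lexogen went from 5 to 3, and PLA2G4A was no longer called (adjusted p = 0.0590). TBXAS1 was no longer called between kits with sense counts (0.23) or without the filter (0.34). Leaving out each library in turn kept 4 enzyme genes called in Takara and left 1 to 2 in Lexogen, with 2 only without the control library of animal 18. Reversals under this alternative were limited to PTGS2, LTA4H and LTC4S. The values ran from -0.014 to 0.54 for PTGS2 and from -0.14 to 0.20 for LTA4H in Takara. In Lexogen they ran from -1.79 to 0.44 for PTGS2, from -0.39 to 0.059 for LTA4H and from -0.20 to 0.52 for LTC4S. The cause of these shifts was not tested, and the fits within a run also held fewer samples.

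PTGES in both kits and PTGS1 in Lexogen were at 0 in most libraries and were removed by the filter on low counts. The median standard error over all genes was 0.42 in Lexogen and 0.18 in Takara.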
